A study of Homo sapiens with 9 samples.

Results

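The chaperones of the HSP70 and HSP90 families that work inside the endoplasmic reticulum (ER), together with their regulators and partners, were followed on arrays of HEK293 cells expressing wild-type or mutant surfactant protein C. The set has 10 genes of the 19775 that a probe set named alone: HSPA5, HYOU1, SIL1, HSPA13, HSP90B1, CNPY3, CNPY2, SDF2L1, MANF and CRELD2. They were chosen by name and function, with earlier results of these data known. The counts and shares below therefore describe the set and do not test it. For each gene, every probe set whose annotation names only that gene was taken. This gave 19 probe sets, of which 18 passed the filter on low signal, and each of the 10 genes had at least 1 probe set that passed. A gene is represented below by the probe set with the highest mean log2 value over the 9 arrays, and 5 genes have several probe sets while 5 have 1.

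HEK293 is an established human line of embryonic kidney origin that grows readily and takes up plasmids well. The cells were transiently transfected with wild-type surfactant protein C (SP-C), here the WT group, with a mutant that lacks exon 4 of SP-C, here Ex4, or with a mutant carrying the substitution L188Q, here LQ. All groups therefore carry an SP-C transgene, there are 3 arrays in each of the 3 groups, and no untransfected or empty-vector sample was analysed here. SP-C is a secreted peptide of the alveolar type II cell, made from the precursor encoded by SFTPC, and both mutant forms are known from familial interstitial lung disease. Transient transfection leaves cells with and without the plasmid in 1 culture, and on these bulk arrays fewer expressing cells and less RNA per cell cannot be told apart.

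As background, the ER folds secreted proteins with a chaperone cycle run by HSPA5, also called BiP or GRP78, which binds unfolded stretches of a client and lets go of them as ADP is exchanged for ATP. HYOU1 and SIL1 are exchange factors of that cycle, HSP90B1, also called GRP94, takes over a set of late folding clients, and the other genes encode cofactors of these chaperones or small ER proteins produced with them. When unfolded protein accumulates, sensors in the ER membrane start the unfolded protein response (UPR), and its transcription factors act through short promoter sequences, the ER stress response elements, to which many of these genes owe their induction.

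The promoters of these genes are shown for that reason. RefSeq start sites on GRCh38.p14 gave 11 windows for the 10 genes, CNPY3 having 2 of them, and the 250 bases before each start were searched on both strands for 3 motifs. The first is the ER stress response element ERSE, CCAAT and CCACG with 9 free bases between them, which 26 of all 35116 windows held, or 0.074%. The second is ERSE-II, ATTGG and CCACG with 1 free base between them, which 18 windows held, or 0.0513%, and the third is the UPR element core TGACGTGG, which 215 windows held, or 0.612%. At least 1 of the 3 motifs was in 258 windows, 0.735% of all, and in the windows of 5 of the 10 genes: HSPA5, HSP90B1, HYOU1, SDF2L1 and CRELD2. Those 5 are printed 5′ to 3′ on the gene's strand, and capitals mark the matches. HSPA5 (chr9:125241344-125241593, minus strand) had 1 ERSE, from 66 to 48 bases before the start. HSP90B1 (chr12:103930160-103930409, plus strand) had an ERSE at 194 to 176 bases and a second, on the other strand, at 89 to 71 bases. CRELD2 (chr22:49918384-49918633, plus strand) had 1 ERSE on the other strand at 80 to 62 bases. HYOU1 (chr11:119057206-119057455, minus strand) had 2 ERSE-II matches on the other strand, at 185 to 175 and 79 to 69 bases, and the first of these overlaps a UPR element core at 188 to 181 bases. SDF2L1 (chr22:21642052-21642301, plus strand) had 1 ERSE-II on the other strand at 188 to 178 bases.
HSPA5: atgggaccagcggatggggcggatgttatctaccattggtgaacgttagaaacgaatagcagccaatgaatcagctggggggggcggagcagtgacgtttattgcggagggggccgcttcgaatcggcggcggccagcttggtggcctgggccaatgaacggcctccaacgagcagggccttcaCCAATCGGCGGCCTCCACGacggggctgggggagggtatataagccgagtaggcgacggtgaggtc
HSP90B1: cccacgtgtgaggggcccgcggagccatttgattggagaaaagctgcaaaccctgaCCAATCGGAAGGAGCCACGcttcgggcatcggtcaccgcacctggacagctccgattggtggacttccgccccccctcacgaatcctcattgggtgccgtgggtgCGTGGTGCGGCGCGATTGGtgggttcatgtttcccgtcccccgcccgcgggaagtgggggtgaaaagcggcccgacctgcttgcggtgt
CRELD2: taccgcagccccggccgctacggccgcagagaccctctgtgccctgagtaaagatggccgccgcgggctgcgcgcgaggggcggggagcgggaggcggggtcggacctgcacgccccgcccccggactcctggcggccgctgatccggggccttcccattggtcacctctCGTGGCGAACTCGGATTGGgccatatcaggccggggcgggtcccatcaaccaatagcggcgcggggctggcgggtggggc
HYOU1: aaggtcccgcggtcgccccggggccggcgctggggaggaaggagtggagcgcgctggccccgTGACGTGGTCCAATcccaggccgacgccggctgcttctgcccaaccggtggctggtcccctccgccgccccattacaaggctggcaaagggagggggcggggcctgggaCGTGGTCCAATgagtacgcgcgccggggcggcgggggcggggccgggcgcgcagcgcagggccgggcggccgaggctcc
SDF2L1: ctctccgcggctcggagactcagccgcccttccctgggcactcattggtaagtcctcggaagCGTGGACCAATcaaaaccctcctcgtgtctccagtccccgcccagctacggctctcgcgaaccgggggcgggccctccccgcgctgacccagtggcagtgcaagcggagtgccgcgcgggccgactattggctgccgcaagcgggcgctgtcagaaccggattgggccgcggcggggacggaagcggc
No match was in the windows of SIL1, HSPA13, MANF, CNPY2 or CNPY3, which says only that these letters are not in these bases. A match is a description of the sequence and was not tested as a binding site.

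Values are MAS5 signals on a linear scale with 1 value for each probe set and array. A change is the difference of group means of log2(signal + 16), given with its standard error from limma, and a gene is called where the p-value adjusted over all 32768 probe sets tested is under 0.05. The labels do not say whether the arrays of a group come from separate cultures, so the p-values cover no more than the variation from array to array, which may be technical. Arrays were scaled to nearly the same trimmed mean, 1493.3 to 1494.9, but the median signal was 506.4 to 524.4 with WT, 316.1 to 434.3 with Ex4 and 303.9 to 371.8 with LQ. Ex4 replicate 1 stood nearer to the WT arrays, with a mean correlation of 0.911 to them against 0.906 to its own group. The representative probe set of the transfected SFTPC gene had signals of 208692 ± 46978 (SD, n = 3) with WT, 133750 ± 35810 with Ex4 and 121730 ± 11739 with LQ. These do not tell the alleles apart, and whether the probe set reads the exon that Ex4 lacks was not examined. The 3′ to 5′ signal ratio of GAPDH, a measure of RNA integrity, was 1.31 ± 0.11, 1.12 ± 0.14 and 1.07 ± 0.016 (SD, n = 3) in the same order, while that of ACTB was 1.13 ± 0.12, 1.35 ± 0.18 and 1.18 ± 0.041. All 7 markers of HEK293 cells were above the array median on all 9 arrays, with PAX2 lower in LQ than in WT by a log2 change of -2.04 (limma adjusted p = 0.025). Of 7 alveolar type II markers other than SFTPC, 2 were above the median on all 9 arrays and 1 on none, and their summed signal was 4846 to 6530 in WT, 3721 to 4555 in Ex4 and 4250.5 to 5064 in LQ. Of 6 fibroblast markers, 1 was above the median on all arrays and 3 on none, and the sums were 6657 to 8077, 4707 to 5882 and 3216 to 4446.5. Of 5 blood cell markers, 1 was above the median on all arrays and 2 on none, with sums of 2348 to 2928, 1329 to 1543.5 and 1264 to 1283, and the leukocyte gene PTPRC was at 9.6 to 194.9, below the median on every array. The medians, SFTPC and the fibroblast and blood sums thus move with the mutant groups. The GAPDH ratio was lower on every LQ array than on any WT array, but Ex4 replicate 1, at 1.22, was above WT replicate 3, at 1.21. For ACTB, all LQ arrays and Ex4 replicate 1 were within the WT range of 1.05 to 1.27. Only Ex4 replicates 2 and 3, at 1.43 and 1.48, were above that range. The part of all these measures in the results below was not tested.

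The central ER chaperones were higher in cells with mutant SP-C. With LQ, HSPA5, HSP90B1, SDF2L1 and CRELD2 rose by 1.70-fold to 2.11-fold over WT and none of the 10 genes was called lower. So 4 of 10 were called higher, where the share among all 14018 genes tested was 3.69%. The share of genes called lower was 3.63%. Before adjustment, limma gave 5 of the 10 genes a p under 0.05 in the higher direction with LQ, against 13.4% of all genes, and 2 in the lower direction, against 17.2%. With Ex4, HSPA5, HSP90B1, HSPA13 and CRELD2 had changes of 0.73 to 0.94 on the log2 scale, but limma called 0 of the 10 genes and 0% of all genes in either direction. The unadjusted counts with Ex4 were 5 genes higher, against 12.1% of all genes, and 1 lower, against 15.1%. When both mutants were set against WT together, HSPA5, HSP90B1, HSPA13 and CRELD2 were called higher and none of the 10 genes lower. Of all genes, 6.22% were called higher and 6.72% lower. Unadjusted, 6 of the 10 were higher and 1 lower there, against 15% and 19.9% of all genes.

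**Figure D1:**
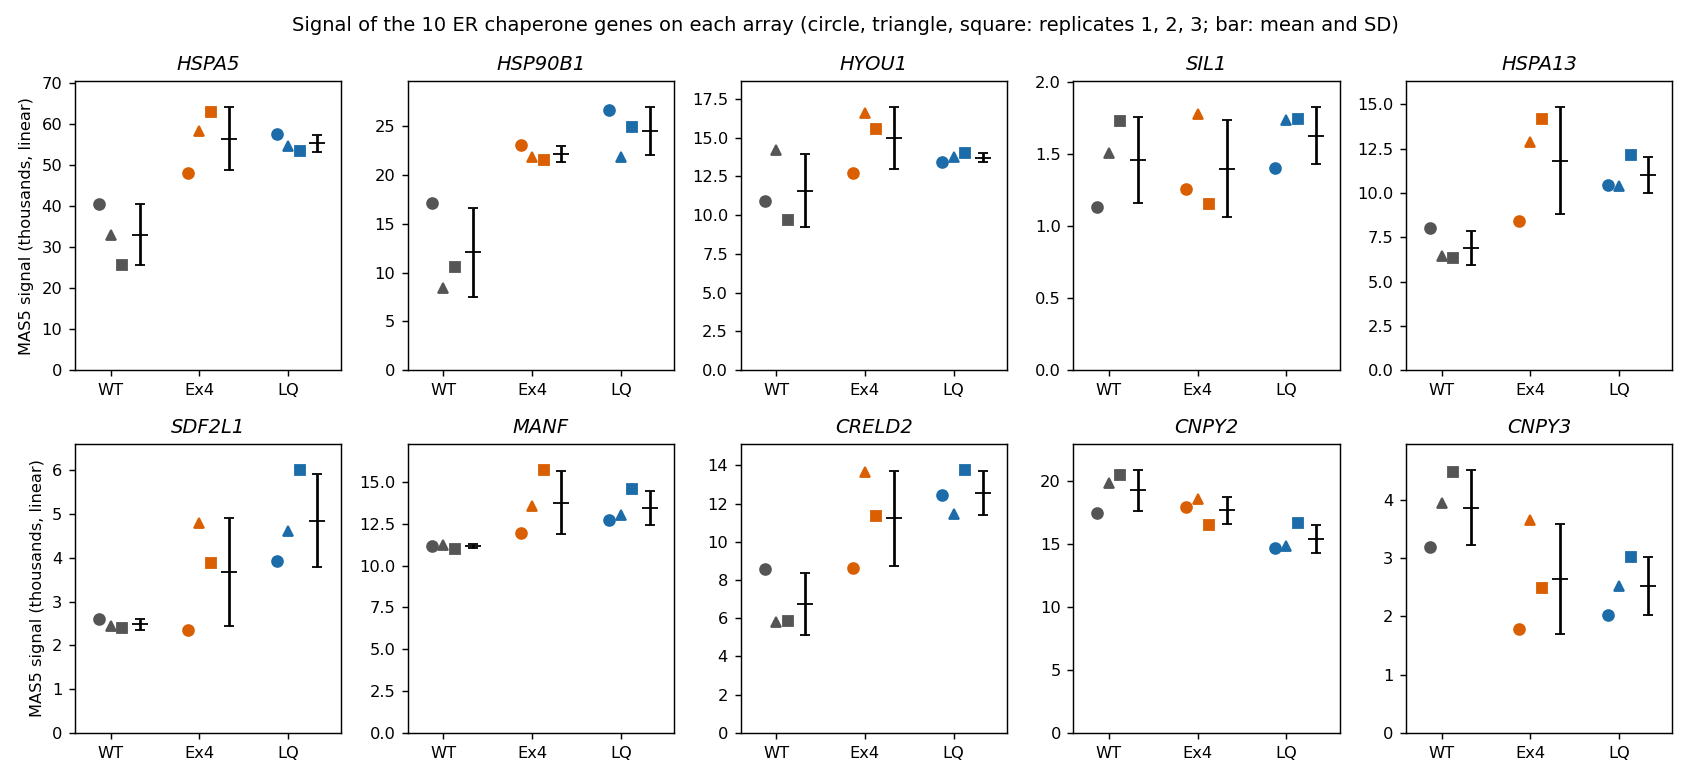
MAS5 signal, on a linear axis from 0 with the unit in its label, of the representative probe set of each of the 10 genes on the 9 arrays; circles, triangles and squares are replicates 1, 2 and 3, and bars show the mean and SD of 3 arrays. The panels of HSPA5, HSP90B1, HSPA13, MANF and CRELD2 have every mutant array above every WT array, while SIL1, CNPY2 and CNPY3 do not.

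The direction of the 10 genes, chosen with earlier results known, differed from that of the table. With Ex4 7 of 10 had a positive change against 43.6% of all genes, with LQ 8 of 10 against 43.6%, and with both mutants 8 of 10 against 43.3%. The median change of the 10 genes was 0.44 with Ex4 and 0.47 with LQ, where the medians over all genes were -0.08 and -0.09. The arrays of the 2 groups did not overlap, with the mutant higher, for 5 of 10 genes with Ex4 against 9.07% of all genes, and for 6 of 10 with LQ against 15.7%. With LQ the signals of CNPY2 and CNPY3 lay below all WT arrays, which held for 23.2% of all genes, and no gene of the set did so with Ex4, against 14.9%. All 6 mutant arrays were above all WT arrays for 5 of the 10 genes, against 6.79% of all genes, and below them for none, against 11.6%. The 2 comparisons share the WT arrays, so their values are set side by side and not as independent evidence.

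HSPA5, the HSP70 of the ER and the regulator that holds the stress sensors inactive, rose with LQ. Its signal was 40365, 32956 and 25687 on WT replicates 1, 2 and 3, 47913, 58233 and 62875 on the Ex4 arrays, and 57613, 54507 and 53482 on the LQ arrays. Every mutant array was above every WT array, WT replicate 1 was the highest of its group, and Ex4 replicate 1 was the lowest of the mutants. The change was 0.79 ± 0.17 with Ex4 (limma adjusted p = 0.077) and 0.77 ± 0.17 with LQ (limma adjusted p = 0.033), a 1.70-fold rise. With both mutants it was 0.78 ± 0.15 (limma adjusted p = 0.021), and the exact two-sided permutation test of 6 against 3 arrays gave p = 0.012, the smallest it can give, or 0.10 adjusted over all probe sets. A second probe set of HSPA5 had signals of 1191 to 1913 in WT, 1870 to 2136 in Ex4 and 1369 to 2109 in LQ. Its WT arrays overlapped with those of both mutants, and its changes of 0.37 and 0.13 were not called. Averaging both probe sets left HSPA5 uncalled with LQ.

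Neither exchange factor of HSPA5 was called in any comparison. HYOU1, also called GRP170, a large HSP70 relative that speeds ADP release from HSPA5, had signals of 10891, 14207 and 9668 in WT, 12729, 16581 and 15577 in Ex4 and 13412, 13728 and 13996 in LQ. WT replicate 2 lay above every LQ array, so the groups overlapped in both comparisons. Its changes of 0.38 ± 0.17 with Ex4 (limma adjusted p = 0.20) and 0.26 ± 0.17 with LQ (limma adjusted p = 0.33) were not called, although its promoter holds the most matches of the set. SIL1, the second exchange factor, whose loss causes Marinesco-Sjögren syndrome, had signals of 1134, 1509 and 1727 in WT, 1259, 1779 and 1154 in Ex4 and 1400, 1735 and 1745 in LQ. Its 3 groups overlapped, and its changes were -0.06 ± 0.25 and 0.17 ± 0.25 (limma adjusted p = 0.90 and 0.67). The 95% interval of the change with LQ, from -0.37 to 0.71, includes the changes measured for HYOU1.

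HSPA13, also called STCH, an HSP70 protein of the microsomal fraction that lacks the usual peptide-binding part, had arrays that did not overlap between WT and either mutant. Its signals were 8016, 6419 and 6311 in WT, 8423, 12890 and 14146 in Ex4 and 10456, 10382 and 12164.5 in LQ. Ex4 replicate 1 was the lowest mutant array and close to WT replicate 1. The changes were 0.75 ± 0.20 with Ex4 (limma adjusted p = 0.085) and 0.67 ± 0.20 with LQ (limma adjusted p = 0.061), and with both mutants the gene rose by 0.71 ± 0.17, or 1.64-fold (limma adjusted p = 0.031). Its second probe set had signals of 6035 to 8651 in WT, 8965 to 11343 in Ex4 and 8818.5 to 9512 in LQ, and the mutant arrays were again above all WT arrays. The changes there were 0.48, 0.35 and 0.41 with Ex4, LQ and both mutants, and none was called (limma adjusted p = 0.12, 0.19 and 0.077).

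HSP90B1, the HSP90 of the ER, which folds integrins and toll-like receptors among other clients, had the largest change of the 10 genes in each mutant against WT. Its signals were 17157, 8468 and 10606 in WT, 23094, 21862 and 21592 in Ex4 and 26728, 21888 and 24914.5 in LQ. The groups did not overlap, and WT replicate 1 was the highest WT array here as well. The change was 0.94 ± 0.22 with Ex4 (limma adjusted p = 0.077) and 1.08 ± 0.22 with LQ, a 2.11-fold rise (limma adjusted p = 0.026). The second probe set, at 962 to 2090 over the 9 arrays, had changes of -0.02 and -0.19 with no call, and averaging both lowered the change with LQ to 0.45 (limma adjusted p = 0.14). Both names carry the suffix that marks probes able to match other transcripts, and 2 further probe sets that name HSP90B1 with another gene were not used, so the size for HSP90B1 is uncertain.

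Neither canopy protein was called in any comparison, and their changes against WT were negative. CNPY3, the cochaperone that brings toll-like receptors to HSP90B1, had signals of 3191, 3942 and 4475 in WT, 1786, 3658 and 2483 in Ex4 and 2024, 2518 and 3027 in LQ. LQ lay below WT on all arrays and Ex4 replicate 2 overlapped with WT, with changes of -0.59 ± 0.26 and -0.62 ± 0.26 (limma adjusted p = 0.19 and 0.15). Its 3 other probe sets had changes between -0.23 and 0.12 with Ex4 and between -0.31 and 0.02 with LQ. CNPY2, a saposin-like ER protein, had signals of 17428.5, 19844.5 and 20489 in WT, 17956, 18538 and 16496 in Ex4 and 14676, 14805 and 16679 in LQ. The LQ arrays were all below the WT arrays, the Ex4 arrays overlapped with them, and the changes of -0.12 ± 0.14 and -0.32 ± 0.14 were not called (limma adjusted p = 0.60 and 0.15). Another 2 probe sets of CNPY2 had changes of -0.49 and -0.52 with Ex4 and of -0.31 and -0.36 with LQ, also with no call, and the fourth did not pass the filter on low signal and was below the array median on all 9 arrays.

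Among the smaller partners, SDF2L1 and CRELD2 rose with LQ and MANF did not pass the test. SDF2L1, which forms a complex with DNAJB11, a J protein of HSPA5, had signals of 2612.5, 2439 and 2387 in WT, 2342, 4799 and 3893 in Ex4 and 3931, 4610 and 6007 in LQ. Ex4 replicate 1 was below all WT arrays while the other Ex4 arrays were in the range of LQ, and no LQ array overlapped with WT. The change was 0.51 ± 0.25 with Ex4 (limma adjusted p = 0.24) and 0.94 ± 0.25 with LQ, a 1.92-fold rise (limma adjusted p = 0.048). With both mutants it was 0.72 ± 0.22 (limma adjusted p = 0.052).

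CRELD2, a cysteine-rich ER protein with disulfide isomerase activity, had signals of 8598, 5798 and 5834 in WT, 8655, 13670 and 11337 in Ex4 and 12454, 11474 and 13756 in LQ. All mutant arrays were above all WT arrays, with WT replicate 1 and Ex4 replicate 1 nearly equal. The change was 0.73 ± 0.21 with Ex4 (limma adjusted p = 0.088), 0.92 ± 0.21 with LQ, a 1.89-fold rise (limma adjusted p = 0.032), and 0.83 ± 0.18 with both mutants (limma adjusted p = 0.024). MANF, a small protein that binds HSPA5 in the ER and is also secreted, had signals of 11179, 11257 and 11024 in WT, 11976, 13579 and 15718 in Ex4 and 12704, 13050 and 14581 in LQ. On the log2 scale its WT arrays were the closest together of the 10 genes, and every mutant array was above them, but the changes of 0.29 ± 0.15 and 0.27 ± 0.15 were not called (limma adjusted p = 0.23 and 0.24). With both mutants the change of MANF was 0.28 ± 0.13 (limma adjusted p = 0.15), and the exact permutation test gave p = 0.024, or 0.13 adjusted over all probe sets.

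**Figure D2:**
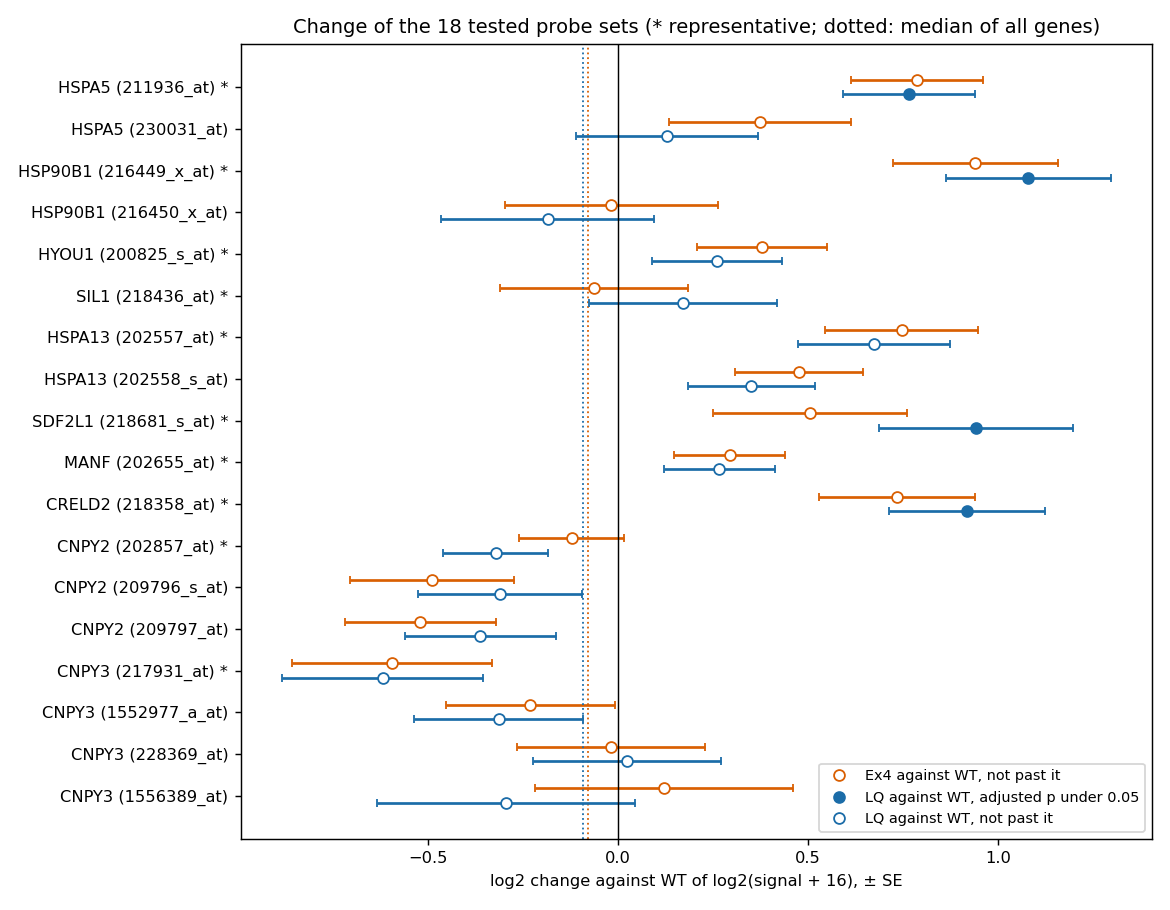
Log2 change against WT with its standard error for the 18 tested probe sets of the 10 genes; filled points have a limma adjusted p under 0.05, open points do not, an asterisk marks the representative probe set and the dotted lines are the medians of all genes, -0.08 for Ex4 and -0.09 for LQ. The 4 filled points are HSPA5, HSP90B1, SDF2L1 and CRELD2 with LQ, and the second probe sets of HSPA5 and HSP90B1 lie nearer to 0.

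The genes called with LQ are all among the 5 whose windows hold a motif, and HYOU1 is the fifth. HSPA13 and MANF, without a match, had arrays that did not overlap with WT in either mutant. With 10 genes chosen by name and with earlier results known, this is a description and no test was made of it.

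No difference between the mutants was called for any of the 10 genes. In LQ against Ex4 limma called 0 of the 10 genes and 0% of all genes in either direction, and gave an unadjusted p under 0.05 to 0 of the 10, against 2.19% of all genes higher and 2% lower. No gene of the set had groups that did not overlap, against 5.91% and 6.47% of all genes. The largest differences were 0.44 for SDF2L1, with a 95% interval from -0.12 to 0.99, and 0.24 for SIL1, from -0.30 to 0.77. For HSPA5 the difference was -0.02, from -0.40 to 0.36, for HSP90B1 0.14, from -0.33 to 0.61, and for CRELD2 0.18, from -0.26 to 0.63. HYOU1 differed by -0.12, from -0.49 to 0.25, MANF by -0.03, from -0.35 to 0.29, and HSPA13 by -0.07, from -0.51 to 0.36. CNPY2 differed by -0.20, from -0.50 to 0.10, and CNPY3 by -0.02, from -0.60 to 0.55. These intervals leave room for differences as large as several of the changes against WT.

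How the arrays were put on a common scale moved the sizes. The median change of all tested probe sets was -0.12 with Ex4 and -0.15 with LQ as deposited, 0.02 and 0.04 after quantile normalization, and 0.37 and 0.44 when each array was centred on its median. With LQ the 1011 probe sets called higher and 1220 called lower became 669 and 485 after quantile normalization, and 7934 and 518 after centring. Counted in genes, 1.87% were called higher and 1.54% lower with LQ after quantile normalization, and 28.9% and 1.21% after centring, where Ex4 had 18.5% and 0.842%. HSPA5 and HSP90B1 rose with LQ under each of these scalings, by 0.79 and 0.91 after quantile normalization (limma adjusted p = 0.038 and 0.049) and by 1.35 and 1.66 after centring. After quantile normalization SDF2L1, at 0.90, and CRELD2, at 0.75, just missed the threshold with LQ (limma adjusted p = 0.064 and 0.055). Centring brought 7 of the 10 genes past it with LQ, adding HYOU1 at 0.84, HSPA13 at 1.26 and MANF at 0.85, and 6 with Ex4, where SDF2L1 at 0.99 was not called (limma adjusted p = 0.057). The changes of CNPY2 turned to 0.37 with Ex4 and 0.26 with LQ after centring, and those of CNPY3 came to -0.11 and -0.04, so the direction of CNPY2 depends on the scaling, and CNPY3 stayed negative but close to 0. The change of SIL1 with Ex4, -0.06 as deposited, turned to 0.10 after quantile normalization and 0.42 after centring, without a call.

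**Figure D3:**
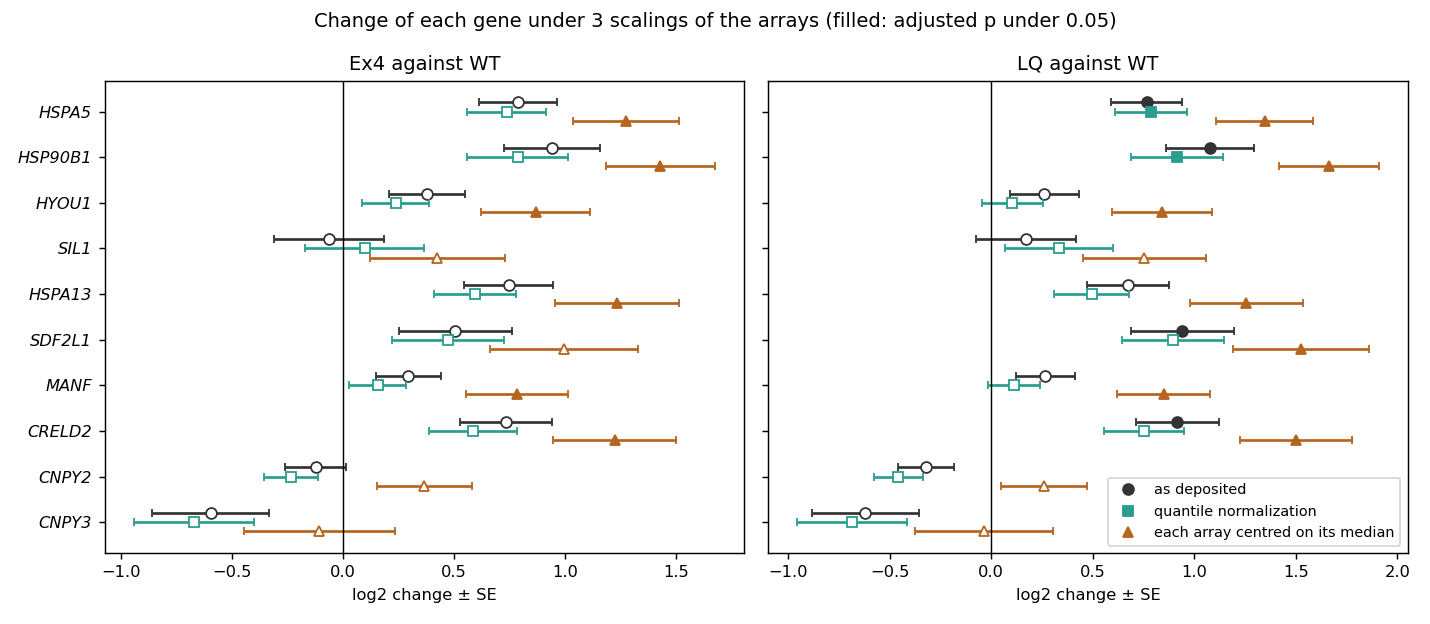
Log2 change of the 10 genes with its standard error, with Ex4 on the left and LQ on the right, as deposited, after quantile normalization and after median centring of each array; filled points have a limma adjusted p under 0.05. HSPA5, HSP90B1, HYOU1, HSPA13, SDF2L1, MANF and CRELD2 stay above 0 under all 3 scalings, while CNPY2, and SIL1 with Ex4, change side.

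Single arrays decided which genes were called. Without WT replicate 1, HSPA5, HSP90B1, HSPA13 and CRELD2 were called with Ex4, at changes of 0.94, 1.22, 0.86 and 0.92 (limma adjusted p = 0.0054, 0.0015, 0.027 and 0.014). Without Ex4 replicate 1, the same genes and SDF2L1 were called, at 0.90, 0.91, 0.97, 0.91 and 0.80. The whole table moved too: with Ex4 8.64% of all genes were called higher and 5.18% lower without WT replicate 1, and 5.72% and 8.15% without Ex4 replicate 1. In the other direction, none of the 10 genes was called with LQ when WT replicate 2, WT replicate 3 or any LQ array was left out, and SDF2L1 also lost its call without Ex4 replicate 3 (limma adjusted p = 0.058). The fit without Ex4 replicate 3 called 2.97% of all genes higher and 3.11% lower with LQ. In the fits without WT replicate 2, WT replicate 3 or an LQ array, 0.0144% to 0.137% of all genes were called higher. There the limma adjusted p reached 0.11 for HSPA5, 0.098 for HSP90B1, 0.17 for SDF2L1 and 0.12 for CRELD2. Their changes stayed between 0.60 and 1.16. With both mutants, 0 of the 10 genes were called without WT replicate 2, without WT replicate 3 or without LQ replicate 3, and 2 without Ex4 replicate 3. In the same order, 0.0505%, 0.0864%, 0.589% and 1.73% of all genes were called higher there, and 0%, 0%, 0.474% and 1.57% lower. A fit without both WT replicate 1 and Ex4 replicate 1, tried after the data had been seen, called 5 genes higher with each mutant, and with LQ it called CNPY2 and CNPY3 lower, at -0.39 and -0.75. In that fit 14.1% of all genes were called higher and 14.1% lower with Ex4, and 14.1% and 14.3% with LQ. The labels give no batch for these arrays.

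Around the 10 genes, some other genes of the ER were called with LQ, and none of the chaperones of the same families outside it was. These counts were not tested against each other. Of the HSP70 and HSP90 proteins outside the ER with their cofactors, 16 of 19 listed genes were tested, limma called 0 with either mutant, and the median change with LQ was -0.09, as it was over all genes. Limma called 3.69% of all genes higher and 3.63% lower with LQ and 0% with Ex4, so 0 of 16 is near these shares. Single genes moved further without a call. HSPA6, a stress-inducible cytosolic HSP70 named here after its values were seen, had a mean signal of 1806 in WT, 4156 in Ex4 and 899 in LQ. Its changes were 1.16 ± 0.36 with Ex4 (limma adjusted p = 0.10) and -0.99 ± 0.36 with LQ (limma adjusted p = 0.10). In LQ against Ex4 the difference was -2.15 (limma adjusted p = 0.68), and -2.53 without WT replicate 1 and Ex4 replicate 1, where it was called (limma adjusted p = 0.030). It was called with Ex4 without Ex4 replicate 1 (1.54, limma adjusted p = 0.015) and with LQ in that fit (limma adjusted p = 0.048). HSPA1L, also named after its values were seen, was at -1.64 with LQ (limma adjusted p = 0.090). The 2 with the smallest p for both mutants together were HSPH1, a cytosolic exchange factor, at 0.45 with Ex4 and 0.21 with LQ, and HSPBP1, a cofactor of cytosolic HSP70, at 0.39 and 0.30 (limma adjusted p of 0.11, 0.36, 0.18 and 0.26). Centring each array on its median brought 4 of the 16 past the threshold with Ex4 and 5 with LQ, all higher, beside 18.5% and 28.9% of all genes. Of the same-family relatives of the partners, 3 of 5 were tested and CNPY4, a relative of CNPY3, fell with LQ, beside 3.63% of all genes. Its signals were 1661, 2127 and 2619 in WT, 1644, 1189 and 1292 in Ex4 and 881, 782 and 819 in LQ, so that LQ lay below both other groups. The change was -1.33 ± 0.24 with LQ (limma adjusted p = 0.021) and -0.62 with Ex4 (limma adjusted p = 0.15). SDF2, the relative of SDF2L1, differed by -0.25 with Ex4 and -0.28 with LQ without a call, and its sign turned to 0.24 and 0.30 after centring.

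Other ER folding factors gave 3 genes called higher and 1 lower with LQ among 23 tested of 25, beside 3.69% and 3.63% of all genes, and a median change of 0.06. DNAJB9, a J protein that returns HSPA5 to the sensor IRE1, rose with LQ by 1.01 (limma adjusted p = 0.030) and had a change of 0.94 with Ex4 (limma adjusted p = 0.077). DNAJC3, another J protein of HSPA5, rose with LQ by 0.74 (limma adjusted p = 0.049) and had 0.77 with Ex4 (limma adjusted p = 0.081). The other called genes are named here after their values were seen. They were P4HB, a disulfide isomerase, at 0.81, and CALR, the lectin chaperone calreticulin, at -0.97 (limma adjusted p = 0.044 and 0.033). Neither stayed called when the probe sets of the gene were averaged, at 0.12 and -0.53, and CALR came to -0.39 after centring, also without a call.

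Among sensors and transcription factors of the UPR, 17 of 17 were tested, with a median of -0.07 with LQ. Called with LQ was 1 of them, beside 3.69% of all genes called higher and 3.63% lower. It was CREBZF, a bZIP factor, at 0.77 (limma adjusted p = 0.045) against 0.53 with Ex4 (limma adjusted p = 0.14). EIF2AK3, the sensor PERK, was at 0.64 with LQ (limma adjusted p = 0.078) and 0.65 with Ex4 (limma adjusted p = 0.11). It rose with both mutants together, at 0.64 (limma adjusted p = 0.043). That call was lost after quantile normalization, at 0.54 (limma adjusted p = 0.087), and held in 2 of the 9 fits with 1 array left out. With both mutants together MBTPS1, the protease that processes ATF6, named after its values were seen, fell by 0.65 on the log2 scale (limma adjusted p = 0.0497). It was not called after centring, at -0.12, or with averaged probe sets, at -0.23. Of other UPR targets, 19 of 20 were tested, 5 were called higher with LQ and none lower, and the median was 0.25. The shares of all genes were again 3.69% higher and 3.63% lower. HERPUD1, a part of the ER degradation machinery, rose with LQ by 1.26 (limma adjusted p = 0.015) and had 0.95 with Ex4 (limma adjusted p = 0.076). ATF3, a stress-induced transcription factor, had signals of 30350, 43961 and 38325 in WT, 58539, 50185 and 59845 in Ex4 and 69932, 68504 and 68679 in LQ. It rose with LQ by 0.89 (limma adjusted p = 0.020), and its change with Ex4 was 0.59 (limma adjusted p = 0.081). The other called targets, named after their values were seen, were SEL1L, DERL1 and EDEM3, of the same degradation route, at 0.57, 0.77 and 1.04 (limma adjusted p = 0.0495, 0.045 and 0.042). Over the alternatives other than leaving 1 array out, their changes went down to 0.20, 0.26 and 0.92 (limma adjusted p up to 0.52, 0.39 and 0.082). With both mutants together 5 targets rose, and these were HERPUD1, ATF3, SEL1L, EDEM3 and SELENOK. SELENOK, named after its values were seen, was at 0.61 (limma adjusted p = 0.029), and DERL1, at 0.57, was not called (limma adjusted p = 0.054). After quantile normalization SEL1L and SELENOK lost that call (limma adjusted p = 0.057 and 0.056). DERL3, of the degradation route too, fell by 0.73 with both mutants (limma adjusted p = 0.039), a call lost after quantile normalization, at -0.55, and centring, at -0.20. In that comparison 6.22% of all genes were called higher and 6.72% lower. Limma called 0 genes of these 5 lists with Ex4, and 0% of all genes. Single arrays weighed here as well. No gene of the 5 lists was called with LQ without WT replicate 3 or any LQ array, and 1 UPR target was without WT replicate 2. Those fits called 0.0144% to 0.137% of all genes higher and 0 to 0.0144% lower. Without Ex4 replicate 3, 2 folding factors, 2 targets and CNPY4 were called, without WT replicate 1 the folding factors, sensors and targets had 5, 4 and 5 calls, and without Ex4 replicate 1 they had 6, 3 and 7, with 2 outside the ER. In the same order, these fits called 2.97%, 10% and 6.46% of all genes higher with LQ, and 3.11%, 7.83% and 7.66% lower. After quantile normalization HERPUD1 and ATF3 were still called with LQ, at 1.12 and 1.02, as were DNAJB9, P4HB, CALR and CNPY4, while DNAJC3, CREBZF, SEL1L, DERL1 and EDEM3 were not.

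**Figure D4:**
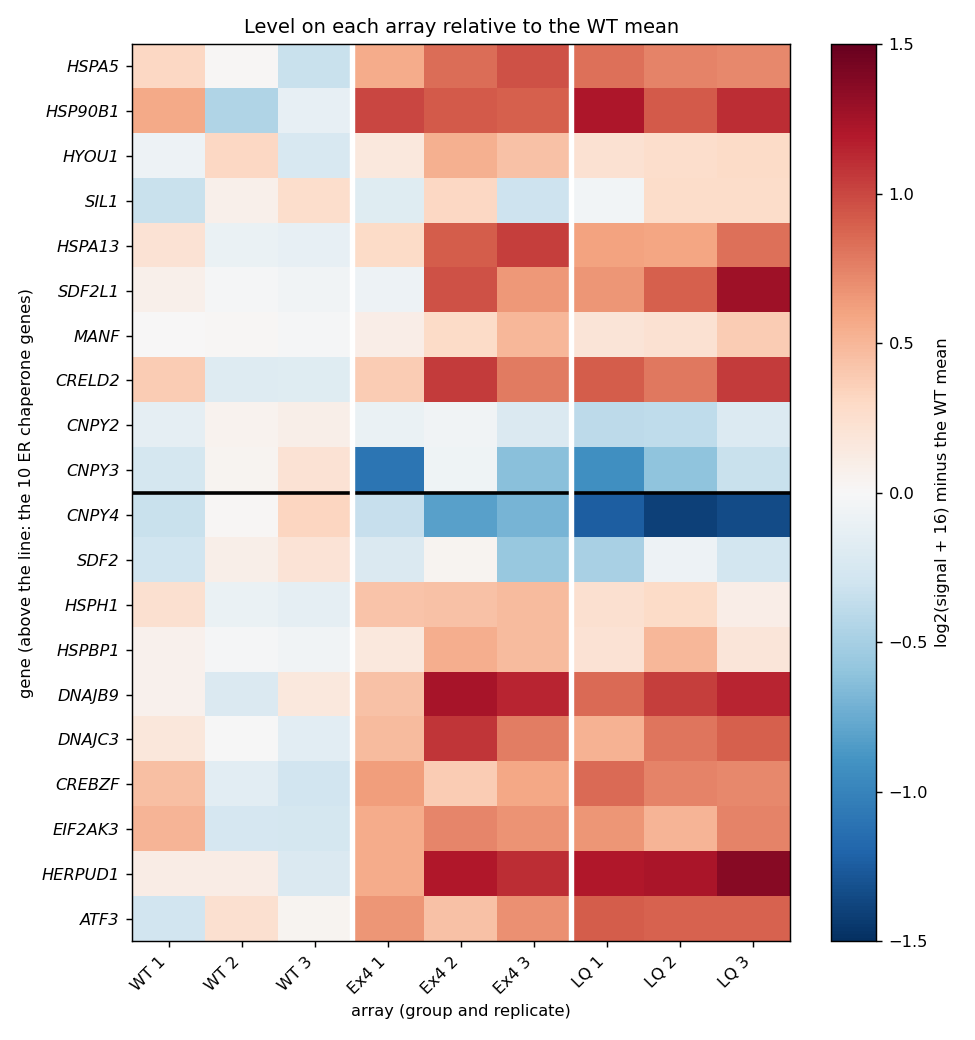
Level on each of the 9 arrays as log2(signal + 16) minus the WT mean, in color, for the 10 ER chaperone genes above the line and genes named from the other lists below it; columns are arrays by group and replicate. HSPA5, HSP90B1, HSPA13 and CRELD2 have their highest WT level on replicate 1, and Ex4 replicate 1 is paler than the other Ex4 arrays for most of the genes that are higher in the mutants.

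The profile of HSPA5 over the 9 arrays was set against that of every other gene by Pearson correlation of log2 values, as a description over arrays that share their groups and scaling. Among 14017 genes the closest were LIN9 at 0.995, PPTC7 at 0.990, IFNGR1 at 0.987, PKN2 at 0.985 and LZTFL1 at 0.985, none of which belongs to the lists. The nearest of the set were HSPA13 at 0.926, rank 212, CRELD2 at 0.921, rank 240, and HSP90B1 at 0.881, rank 513. MANF at 0.817, HYOU1 at 0.755 and SDF2L1 at 0.732 followed, and SIL1 at -0.14, CNPY3 at -0.65 and CNPY2 at -0.75 were at the other end. Many genes outside the ER chaperones therefore resembled HSPA5 more closely on these arrays than its own partners did.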

How the data were processed

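RNA of HEK293 cells was measured on 9 Affymetrix arrays, and the deposited values are 1 linear intensity per probe set and array, computed by MAS5, per the submitters' processing notes (version: not given in the sources used here). Of 54613 probe sets without controls, the 41091 with 1 gene symbol in the platform annotation were named. Detection calls were not used here. Intensities, with their deposited scaling, were used as log2(value + 16), which understates changes of dim probe sets, and probe sets under percentile 40 of the mean were left out. The number of arrays limits the precision.

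All 9 arrays entered a single fit in limma 3.58.1 under R 4.3.3, with a mean per group and variances moderated along a trend with signal. A check of the fit on simulated data drew the noise independently for each probe set and array. It held no shift shared across an array, so it cannot show how such shifts affect the calls here. P-values are two-sided, adjusted by Benjamini-Hochberg over all probe sets tested. In the exact permutation tests over arrays, 3 against 3 cannot go below p = 0.1. Alternatives comprised a pseudocount of 1 or 64, quantile normalization, median centring, other filters, no variance trend, array weights, the replicate block, only the arrays compared, averaged probe sets of a gene, and each array left out. The genes and lists were chosen with earlier results of these data known. Named were all 10 genes, the 2 genes of each list with the smallest p with both mutants, and the 5 genes most like HSPA5. Promoter windows are RefSeq's, on GRCh38.p14.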

Additional observations from a re-analysis of the deposited data

How the results depend on the processing

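HSPA5, HSP90B1, HYOU1, HSPA13, SDF2L1, MANF and CRELD2 kept a positive change against WT in each comparison and alternative run, while the number called depended on the choices. For Ex4 against WT limma called 0 of the 10 genes (5 higher and 1 lower at an unadjusted p under 0.05), against 6 with median centring, 4 with array weights, 5 without both WT replicate 1 and Ex4 replicate 1 (chosen after seeing the data), and 0 to 5 with 1 array left out. Of all genes, 18.5% were called higher and 0.842% lower with centring, 9.26% and 9.05% with array weights, and 14.1% each way without both arrays. With 1 array left out the shares were 0 to 8.64% higher and 0 to 8.15% lower, and before adjustment they were 12.1% and 15.1%. For LQ against WT the 4 called became 2 with quantile normalization, 7 with centring, 0 without the variance trend, 7 with array weights (5 higher, 2 lower), 2 with averaged probe sets, 7 without both arrays, and 0 to 5 with 1 array left out. Of all genes, 1.87% were called higher with quantile normalization, 28.9% with centring, 0.335% without the trend and 3.07% with averaged probe sets. Called lower were 1.54%, 1.21%, 0.906% and 4.81%. Array weights called 13.6% higher and 15% lower, and the fit without both arrays 14.1% and 14.3%. With 1 array left out the shares were 0.0144% to 10% higher and 0 to 7.83% lower. For both mutants the 4 called became 7 with centring, 1 without the trend, 7 with array weights, and 0 to 5 with 1 array left out. There 33% of all genes were called higher and 1.8% lower with centring, 1.31% and 3.3% without the trend, and 14.1% and 16.1% with array weights. With 1 array left out the shares were 0.0505% to 11.9% higher and 0 to 13.1% lower. With a replicate block 0, 4 and 5 genes were called with Ex4, LQ and both mutants. Of all genes it called 0%, 3.77% and 6.84% higher and 0.00713%, 3.47% and 6.71% lower. Over 9 pairs of arrays with the same number the correlation of deviations was -0.083 to 0.19, and 4 were over 0.1. Among arrays of the other groups, 7 of 9 arrays were closest to their own number. The labels state no pairing by number, so the main fit left it out. Whether arrays of the same number were prepared together was not tested. Called probe sets in Ex4 against WT, 4 in all, were 5106 with centring, 5287 with array weights, 3670 and 4409 when WT replicate 1 or Ex4 replicate 1 was left out, and 8261 without both; in LQ against WT, 2231 in all, they ranged from 8 to 4985 with 1 array left out. Signs turned as follows. SIL1 with Ex4 was 0.097 with quantile normalization, 0.42 with centring and -0.25 to 0.068 with 1 array left out, and with both mutants -0.062 with array weights, -0.083 without both arrays and -0.11 to 0.19 with 1 array left out. CNPY2 with centring was 0.37, 0.26 and 0.31 and SDF2 0.24, 0.30 and 0.27 with Ex4, LQ and both mutants. With Ex4 CALR was 0.014 with centring and P4HB -0.075 with averaged probe sets. HSPA1L with Ex4 was 0.073 with quantile normalization, 0.16 with centring, 0.034 with array weights, 0.33 without both arrays and -0.82 to 0.21 with 1 array left out. HSPA6 with both mutants was -0.21 with averaged probe sets and -0.21 to 0.28 with 1 array left out, and MBTPS1 with LQ was 0.043 with centring. For LQ against Ex4, HSPA5 was 0.051 with quantile normalization, 0.073 with centring and -0.13 to 0.063 with 1 array left out; HSPA13 was 0.021 with centring and -0.30 to 0.074, MANF 0.067 and -0.12 to 0.074, and CNPY3 0.069 and -0.27 to 0.24 in the same order; with averaged probe sets HSP90B1 was -0.014 and CNPY2 0.046. Leaving arrays out lowers the sample number; for the other alternatives the cause was not tested.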
